A study of Mus musculus with 35 samples.

Results

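The constitutive proteasome genes were followed through mouse tracheal transplants: the genes whose symbols start with Psma, Psmb, Psmc or Psmd and a digit, without the interferon-inducible subunits Psmb8, Psmb9 and Psmb10. Of 12393 genes named on the array, 36 met this rule, through 65 of 20380 probe sets that name 1 gene. Testing was limited to probe sets with a log2 intensity of 5 or more in 5 or more of 35 arrays, which kept 53 of the 65 probe sets and 35 of the 36 genes. The gene that did not pass was Psma8, which encodes an alpha subunit best known from the testis. The rule also took in Psmc3ip, a cofactor of meiotic recombination that is not a proteasome subunit, so the tested members held 34 proteasome subunits and assembly chaperones. Of the 35 tested genes, 34 read at least 5 in every one of the 35 arrays.

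Tracheal RNA from mice was hybridised to 35 arrays in 7 groups of 5. Native trachea was not transplanted. Isografts had been placed in MHC-compatible recipients and allografts in MHC-incompatible recipients, and both were taken at day 4, 14 or 25. The transplants were heterotopic, that is, placed outside the airway. Strain, age and sex are not given in the sources used here, nor whether the 5 arrays of a group came from separate mice, so the p-values measure the spread between arrays, which may be technical. RNA came from whole tissue, so fewer cells of a type and less RNA per cell cannot be told apart, nor can cells of the graft and of the recipient.

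Native trachea had the markers of its labelled tissue. The mean log2 level was 9.89 for 12 airway epithelial markers, 9.60 for 8 cartilage markers and 9.41 for 6 smooth muscle markers. It was also 9.53 for 10 skeletal muscle markers of adjoining tissue. These were uneven, from 7.65 to 12.26 over the 5 native arrays, and highest in array 5. Before any proteasome gene was considered, native array 5 and isograft day 25 array 5 were picked out by the lowest median correlations with their own group. These were 0.894 and 0.854, against at least 0.901 elsewhere, so native array 5 lay only just below the next. In these arrays the 3 measured skin markers averaged 9.67 and 9.63, against 4.87 to 5.39 in the other native arrays and 4.80 to 5.76 in the other isografts of day 25. Without both arrays, members called lower than native went from 7 to 9 in isografts of day 14. Their number went from 1 to 2 in isografts of day 25 and from 3 to 7 in allografts of day 25. Skin markers were also high in single arrays of other groups. They averaged 8.83 in isograft day 4 array 1, and 8.15 and 8.455 in isograft day 14 arrays 3 and 4. In allograft day 4 arrays 1 and 3 they averaged 8.93 and 9.01.

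The proteasome degrades proteins tagged with ubiquitin. Its core particle stacks rings of alpha subunits (Psma), which gate the entrance, around rings of beta subunits (Psmb), of which Psmb5, Psmb6 and Psmb7 cut proteins. Its regulatory particle has a base with a ring of ATPases (Psmc), which unfolds the protein, and a lid (most Psmd), which removes the ubiquitin. Under interferon-gamma, newly made cores take up Psmb8, Psmb9 and Psmb10 in place of Psmb5, Psmb6 and Psmb7, which changes the peptides that MHC class I can present, and the activator PA28 (Psme1 and Psme2) is made. When proteasome activity falls short, the transcription factor Nrf1 (Nfe2l1) is known to raise transcription of the constitutive genes through antioxidant response elements.

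Promoter sequences are shown for 5 of the members named in the results below. These are the catalytic subunits Psmb5 and Psmb6, the alpha subunit Psma5, the ATPase Psmc6 and the lid subunit Psmd12. Psma5 was higher than native in all 3 allograft groups. Psmc6 and Psmd12 were lower at day 14 than at day 4 in both kinds of graft, as were Psmd6 and Psmd14, which are not shown. The sequences are the 250 bases before the annotated start in the RefSeq promoter table, build GRCm38.p6, each 5′ to 3′ on the strand of its gene. Capitals mark the antioxidant response element core TGACNNNGC, read on either strand.
Psmb5 promoter, chr14:54617996-54618245, minus strand: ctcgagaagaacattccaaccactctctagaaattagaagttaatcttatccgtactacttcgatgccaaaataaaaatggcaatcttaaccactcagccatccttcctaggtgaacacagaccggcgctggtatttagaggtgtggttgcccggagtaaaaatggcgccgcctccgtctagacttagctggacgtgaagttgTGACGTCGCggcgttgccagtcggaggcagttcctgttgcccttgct
Psmb6 promoter, chr11:70525107-70525356, plus strand: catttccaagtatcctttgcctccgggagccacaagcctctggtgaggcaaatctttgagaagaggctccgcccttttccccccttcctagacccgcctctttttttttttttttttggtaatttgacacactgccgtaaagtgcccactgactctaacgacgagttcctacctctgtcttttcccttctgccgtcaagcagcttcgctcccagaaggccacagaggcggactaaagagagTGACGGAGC
Psmc6 promoter, chr14:45329574-45329823, plus strand: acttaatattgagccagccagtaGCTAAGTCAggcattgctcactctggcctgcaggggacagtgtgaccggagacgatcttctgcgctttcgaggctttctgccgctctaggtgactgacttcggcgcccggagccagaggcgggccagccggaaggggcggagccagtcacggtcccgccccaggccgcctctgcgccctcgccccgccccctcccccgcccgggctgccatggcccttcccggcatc
Psmd12 promoter, chr11:107479278-107479527, plus strand: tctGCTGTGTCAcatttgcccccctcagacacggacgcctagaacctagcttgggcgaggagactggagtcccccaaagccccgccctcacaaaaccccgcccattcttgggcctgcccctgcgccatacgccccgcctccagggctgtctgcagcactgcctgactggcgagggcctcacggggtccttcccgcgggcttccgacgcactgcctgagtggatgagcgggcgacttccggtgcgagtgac
Psma5 promoter, chr3:108256676-108256925, plus strand: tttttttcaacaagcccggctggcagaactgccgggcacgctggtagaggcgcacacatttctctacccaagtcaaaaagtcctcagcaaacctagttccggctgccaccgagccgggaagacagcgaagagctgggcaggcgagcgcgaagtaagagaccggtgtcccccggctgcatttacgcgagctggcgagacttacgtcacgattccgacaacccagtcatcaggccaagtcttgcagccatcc
Psma5 had no match in its window, while each of the other 4 had 1. Psmd6 and Psmd14, also lower in both kinds of graft, had no TGACNNNGC in their windows. The windows shown therefore do not stand for all genes that were lower in both. No window was found for the catalytic subunit Psmb7 or for Psmb2. Windows were found for 29 of the 36 member genes. TGACNNNGC was found on either strand in 5 of them (17.2%): the 4 shown and the chaperone Psmd9, against 11.5% of 27025 genes in the table. The CCAAT box, which is bound by NF-Y, was found in 12 of 29 (41.4%), against 37.5% of all genes. It was in none of the 5 windows shown, so the motifs did not overlap there, but Psmd14 had 1 in its window. A match is a description of letters, not a binding site or a cause, and a window without a match says nothing of the factor.

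Group means of the constitutive genes lay between 8.36 and 8.90. The mean over the 35 tested members, in log2 units, was 8.68 ± 0.12 in native trachea (SD, n = 5 arrays, as in all groups). It was 8.90 ± 0.22, 8.36 ± 0.22 and 8.44 ± 0.13 in isografts of day 4, 14 and 25. In allografts it was 8.88 ± 0.22, 8.55 ± 0.18 and 8.47 ± 0.16. In isografts the arrays of day 4 ran from 8.73 to 9.28 and those of day 14 from 8.15 to 8.68, with no overlap, while allografts of day 4 (8.64 to 9.19) and day 14 (8.28 to 8.71) overlapped. Array 1 of the day 4 isografts, at 9.28, was the highest of all 35.

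**Figure D1:**
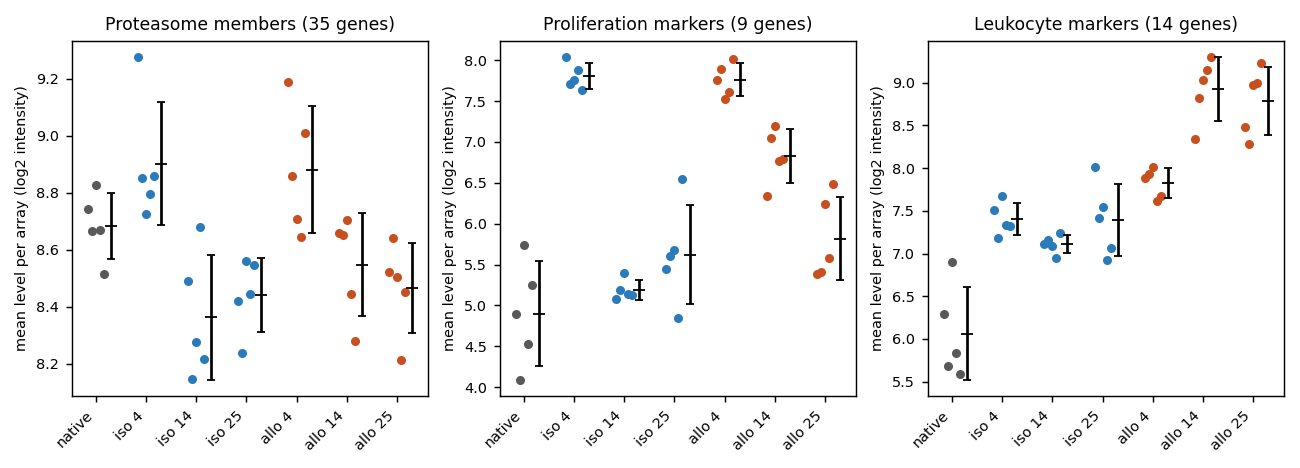
Mean log2 intensity per array over the 35 proteasome members, 9 proliferation markers and 14 leukocyte markers, by group (iso, isograft; allo, allograft; numbers are days). Points are arrays and bars are mean ± SD (n = 5). The proteasome panel spans 8.15 to 9.28, while the proliferation markers span 4.09 to 8.04 and the leukocyte markers 5.59 to 9.30. The vertical axes differ between panels.

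Other cell contents moved over a wider range in the same arrays. Proliferation markers (9 of 10 measured) averaged 4.90 in native trachea, 7.80, 5.19 and 5.62 in isografts of day 4, 14 and 25, and 7.76, 6.83 and 5.82 in allografts. Leukocyte markers (14) averaged 6.06 in native trachea, 7.41, 7.11 and 7.39 in isografts, and 7.82, 8.93 and 8.79 in allografts. They did not move alike: in each kind of graft at day 4, 9 were called higher than native and 2 lower, with 5 below 0. Airway epithelial markers averaged 8.38, 9.46 and 9.46 in isografts and 8.20, 6.07 and 3.61 in allografts. Smooth muscle markers averaged 9.41 in native trachea, 7.32, 7.55 and 8.20 in isografts and 7.42, 6.73 and 6.31 in allografts. Cartilage markers averaged 9.60 in native trachea, 8.75, 9.77 and 9.54 in isografts and 8.90, 7.37 and 10.43 in allografts. Skeletal muscle markers averaged 9.53 in native trachea, 6.54, 7.94 and 8.05 in isografts and 5.97, 3.98 and 6.82 in allografts, and ran from 3.32 to 12.66 over single arrays. The part of these shifts in the member values was not tested.

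Allografts and isografts of the same day were compared, which sets MHC-incompatible against MHC-compatible recipients. Strain is not given, so a difference cannot be ascribed to MHC alone. At day 4 no member was called at a limma adjusted p under 0.05, and 2 of 35 had an unadjusted p under 0.05, where 0.553% of the 8313 tested genes were called. The median difference, allograft minus isograft, was -0.05 over the members and 0.03 over all genes. At day 14, 2 members were higher and 1 lower in allografts, where 21.3% of all genes were called, 10.8% higher and 10.5% lower. The members' median was 0.16, against 0.03 over all genes. Members called higher numbered 4 without isograft array 1, 0 without isograft array 3 and 1 without isograft array 4 or allograft array 1, 2, 3 or 4. Each of 3 other scalings (quantile, median and reference gene) left 1 higher, Psmb2, and 1 lower, Psmd11. At day 25 no member was called and 4 had an unadjusted p under 0.05, where 17.2% of all genes were called, and the median was 0.01 over the members. The share of members called was thus below that of all genes at days 14 and 25.

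Psma5, an alpha-ring subunit, was higher in allografts at day 14. Its log2 values in the isografts of day 14 were 9.02, 8.99, 8.59, 7.82 and 9.01. In the allografts they were 9.36, 9.63, 9.32, 9.61 and 9.05. Every allograft array lay above every isograft array, though the lowest allograft exceeded the highest isograft by little. The difference was 0.71 (SE 0.24, 1.63-fold, limma adjusted p = 0.0335), and its other probe set gave 0.52 (adjusted p = 0.0369). The call was lost when isograft array 3 or 4, or allograft array 2, 3 or 4, was left out, with differences of 0.49 to 0.79 over all such omissions and limma adjusted p up to 0.150. It was also lost with quantile normalization repeated (0.65), with median centring (0.67), with reference gene centring (0.57) and in a fit of the compared arrays alone (limma adjusted p from 0.0611 to 0.181). At day 4 the difference was 0.59 and at day 25 0.52, neither called (adjusted p = 0.700 and 0.158).

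Psmb2, a beta subunit without catalytic activity, had the largest difference among the members at day 14. The isograft arrays read 6.07, 6.28, 5.26, 6.86 and 5.90. The allograft arrays read 7.64, 7.30, 7.26, 6.89 and 6.63. Of the 5 allografts, 4 lay above all isografts and 1 lay below isograft array 4. The difference was 1.07 (SE 0.33, 2.10-fold, limma adjusted p = 0.0205). The call was lost without isograft array 3 or allograft array 1 (limma adjusted p up to 0.0815). Allografts did not stand above native trachea, where Psmb2 ran from 6.29 to 7.84, and the isografts of day 14 were lower than native by 0.93 (adjusted p = 0.0351).

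Psmd11, a lid subunit that helps to join the core and regulatory particles, was lower in allografts at day 14 on the probe set that represents it. That probe set read 10.48, 10.76, 10.41, 10.39 and 10.89 in isografts. It read 9.86, 10.13, 10.13, 10.10 and 9.96 in allografts, all below the isografts. The difference was -0.55 (SE 0.19, 1.46-fold lower, limma adjusted p = 0.0349). Its 3 other tested probe sets gave 0.03, -0.15 and -0.23 and were not called. The call was also lost when any 1 of isograft arrays 2 and 5 or allograft arrays 1, 4 and 5 was left out (limma adjusted p up to 0.101).

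The catalytic subunits Psmb5, Psmb6 and Psmb7 were not called between allografts and isografts on any day. Psmb5, with chymotrypsin-like activity, differed by -0.16, 0.32 and -0.16 at day 4, 14 and 25. The 95% intervals ran from -0.58 to 0.26, from -0.10 to 0.74 and from -0.58 to 0.26. Psmb6, with caspase-like activity, differed by -0.06, -0.10 and -0.46, with intervals of -0.51 to 0.40, -0.56 to 0.35 and -0.92 to -0.01. Psmb7, with trypsin-like activity, differed by -0.40, 0.65 and 0.24, with intervals of -1.10 to 0.30, -0.05 to 1.35 and -0.46 to 0.94. For Psmb7 the intervals thus leave room for a difference of more than 1 log2 unit at day 4 and at day 14.

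**Figure D2:**
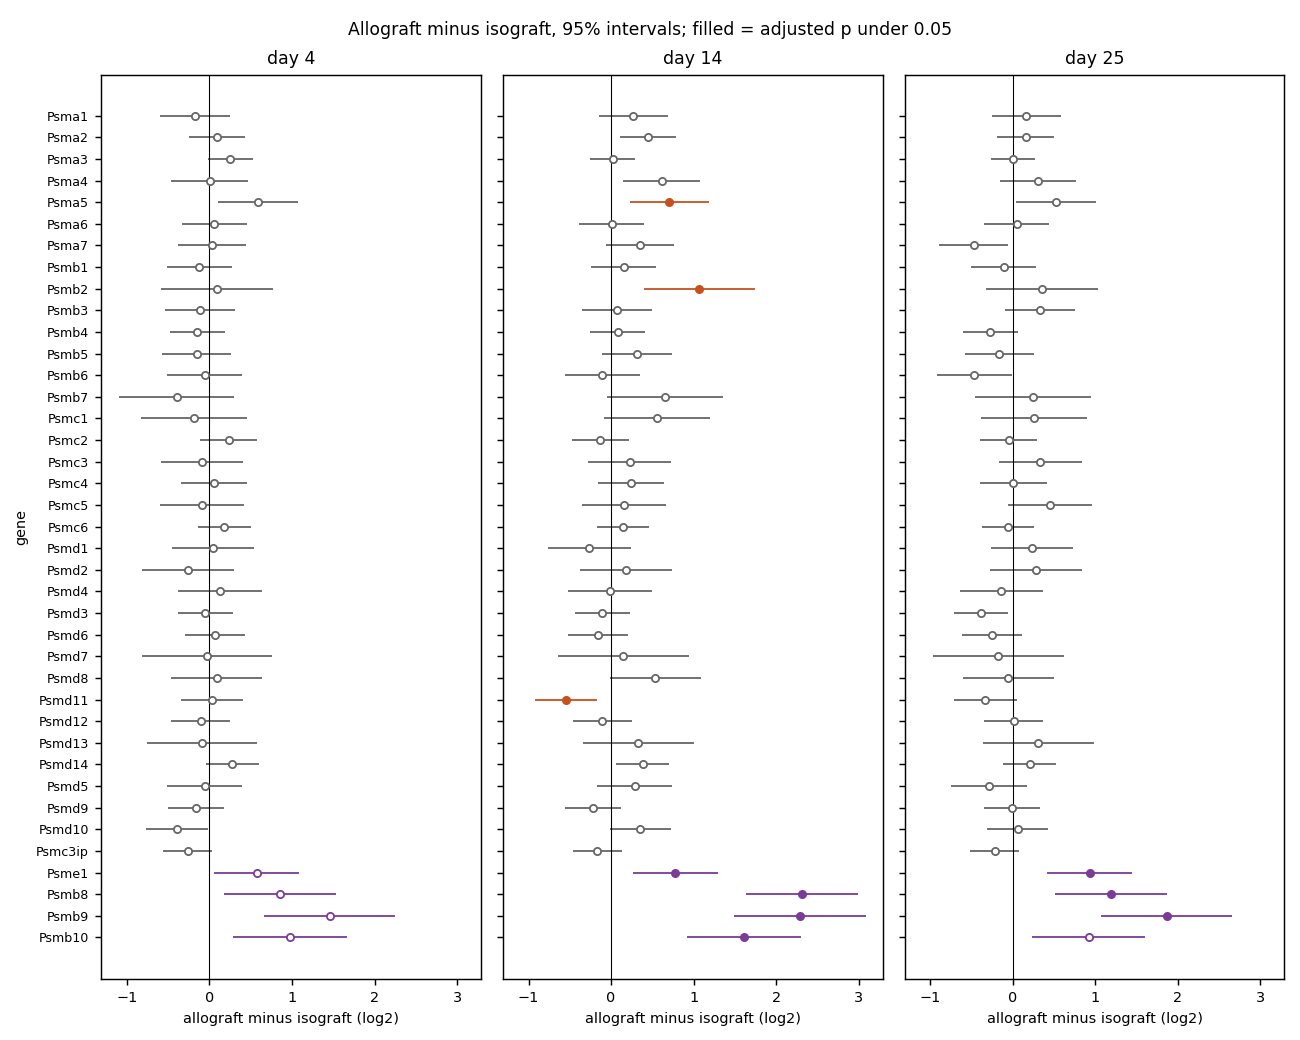
Allograft minus isograft log2 difference of each member at day 4, 14 and 25, with the 4 measured interferon-inducible genes at the bottom in purple. Points are limma estimates, lines are 95% intervals (n = 5 arrays per group) and filled points have an adjusted p under 0.05. Of the members, Psma5, Psmb2 and Psmd11 are filled at day 14 and none at day 4 or 25. Of the inducible genes, Psmb8, Psmb9 and Psme1 are filled at day 14 and 25, and Psmb10 at day 14.

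Their inducible counterparts moved further. Psmb8 read 7.76, 7.99, 7.76, 8.88 and 6.95 in isografts of day 14. It read 9.91, 10.01, 10.78, 9.92 and 10.27 in allografts, with no overlap. It was higher in allografts by 2.31 (SE 0.33), Psmb9 by 2.29 (SE 0.39), Psmb10 by 1.61 (SE 0.34) and Psme1 by 0.78 (SE 0.25), each with a limma adjusted p of 0.0288 or less. At day 25, 3 of these 4 genes were called higher (Psmb9 1.87, Psmb8 1.19, Psme1 0.93). At day 4 none was called, where 0.553% of all genes were. All 4 were above 0 at day 4, from 0.57 to 1.46 with a median of 0.92, each with an unadjusted limma p under 0.05.

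Within each array the inducible subunit was then set against the constitutive subunit that it replaces. This difference within an array is of the log2 values of 2 probe sets, so its change between groups can be read but not its absolute size. Psmb8 relative to Psmb5 was higher in allografts by 1.01 at day 4, 2.00 at day 14 and 1.35 at day 25 (exact two-sided permutation tests, p = 0.0238, 0.00794 and 0.00794, adjusted over 9 tests 0.0306, 0.0119 and 0.0119). Psmb9 relative to Psmb6 was higher by 1.52, 2.39 and 2.33 (exact permutation, adjusted p = 0.0119 on each day). Psmb10 relative to Psmb7 was higher by 1.37 at day 4 (exact permutation, adjusted p = 0.0119). It was higher by 0.96 at day 14 and 0.68 at day 25, which did not pass (exact permutation, adjusted p = 0.125 and 0.198). With 5 arrays against 5, the smallest p possible is 0.00794. The call for Psmb8 at day 4 was lost without isograft array 2 (exact permutation, adjusted p = 0.0612), and Psmb10 at day 14 was called without isograft array 4. On this scale, Psmb9 moved against Psmb6 in all 5 arrays of each allograft group: the lowest allograft lay above the highest isograft on each day, for example -0.78 against -2.44 at day 14.

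**Figure D3:**
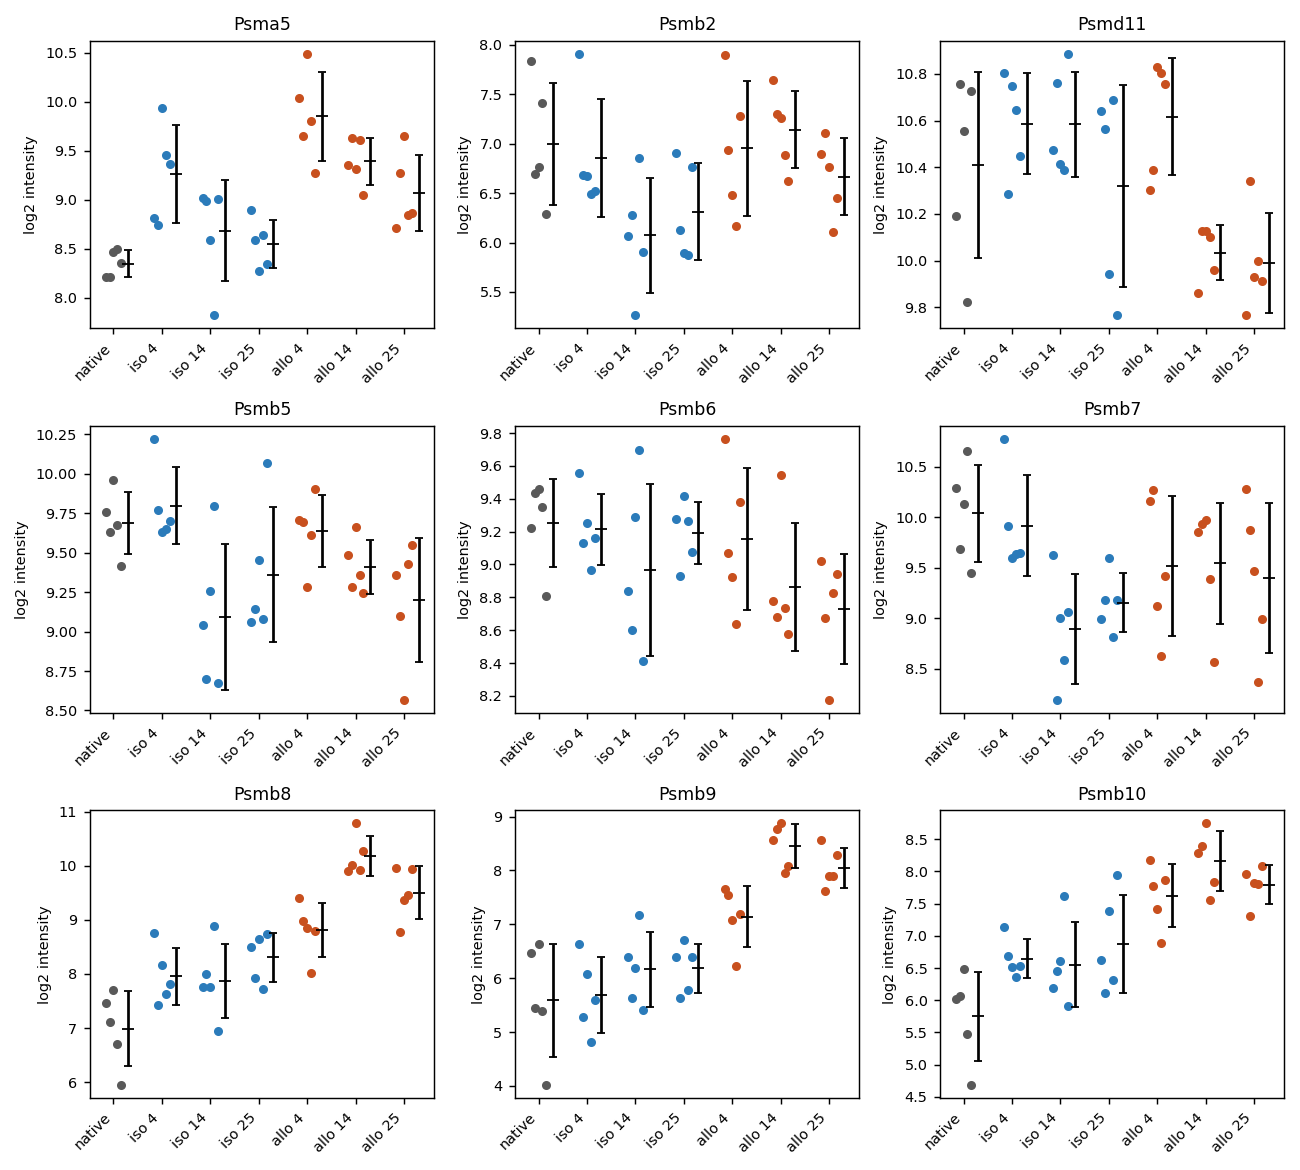
Log2 intensity per array of Psma5, Psmb2 and Psmd11 (top), the catalytic subunits Psmb5, Psmb6 and Psmb7 (middle) and their inducible counterparts Psmb8, Psmb9 and Psmb10 (bottom), by group. Points are arrays and bars are mean ± SD (n = 5). The allografts of day 14 stand above the isografts of day 14 for Psmb8 (9.91 to 10.78 against 6.95 to 8.88), while those of Psmb5 and Psmb6 overlap. Vertical axes differ and do not start at 0.

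Each graft group was next compared with native trachea. These 6 comparisons share the same 5 native arrays, and each is given on its own. In isografts of day 4, 5 of 35 members were higher and none lower, where 46.4% of all genes were called (20.2% higher, 26.2% lower). In allografts of day 4, 6 were higher and none lower, where 47.2% of all genes were called (22.0% higher, 25.1% lower). The medians were 0.20 and 0.14 over the members, against -0.08 and -0.04 over all genes. When arrays were centred on 11 reference genes instead, the members' medians became -0.08 and -0.14 and the all-gene medians -0.36 and -0.32. Members called higher then numbered 0 in isografts and 3 in allografts, so the direction of the members' median at day 4 depended on the scale. The reference genes were themselves unequal at day 4: 5 of 11 were called higher and 1 lower than native in each kind of graft.

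On the probe set that represents each gene, a choice that mattered as given below, the alpha ring held most of the members called higher at day 4. Among its 7 tested subunits, 3 rose in isografts (Psma3 by 0.60, Psma5 by 0.92 and Psma6 by 0.67) and 4 in allografts (Psma2 by 0.44, Psma3 by 0.85, Psma5 by 1.50 and Psma6 by 0.73). Psma5 read 8.22, 8.21, 8.47, 8.50 and 8.36 in native trachea. It read 10.04, 9.65, 10.49, 9.81 and 9.28 in allografts of day 4, a 2.84-fold rise (SE 0.24 log2, limma adjusted p = 6e-06) with no overlap. It stayed above native in allografts of day 14 (1.04, adjusted p = 0.000619) and day 25 (0.72, adjusted p = 0.0178), again with no overlap. In isografts it was called at day 4 (adjusted p = 0.00238) but not at day 14 (0.34) or day 25 (0.20). Psma3 ran from 10.40 to 11.14 in native trachea and from 11.37 to 11.65 in allografts of day 4.

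Outside the alpha ring, the beta subunit Psmb3 rose by 0.63 in isografts and 0.51 in allografts of day 4. Its call in isografts was lost without isograft array 2 (0.51), with reference gene centring (0.34) and with the mean of its probe sets (0.33). The lid subunit Psmd14, the enzyme that removes ubiquitin chains, rose by 0.47 and 0.74. Psmd14 read 8.66, 8.71, 9.04, 8.62 and 8.59 in native trachea. It read 9.37, 8.88, 9.36, 9.25 and 9.11 in isografts and 9.77, 9.16, 9.48, 9.45 and 9.47 in allografts of day 4. All allografts lay above native, and 4 of 5 isografts did. No ATPase, no base subunit without ATPase activity, no chaperone and no catalytic subunit was called against native at day 4 on the probe set that represents it. In allografts, Psma6 and Psmb3 were called on that probe set but not on their others. With reference gene centring Psma5 kept its call in allografts of day 4 and lost it in isografts (0.63).

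At later days most member differences from native were below 0. In isografts of day 14, 1 member was higher (Psma3, 0.41) and 7 were lower, where 28.5% of all genes were called (12.1% higher, 16.3% lower). The median was -0.32 over members and -0.09 over all genes. The lower members were Psmb7 (-1.15), Psmb2 (-0.93), the chaperone Psmd5 (-0.81), Psmc4 (-0.75), Psma1 (-0.60), Psmb5 (-0.59) and Psmc6 (-0.46). Psmb7 read 10.29, 9.69, 10.13, 10.65 and 9.45 in native trachea and 9.63, 8.19, 9.0, 8.59 and 9.06 in isografts of day 14. Only isograft array 1 reached the native range. Lower calls numbered 4 without native array 1 or 3, 3 without isograft array 2 and 12 without isograft array 4. Median centring of the arrays gave 2 higher and 3 lower, and reference gene centring 0 higher and 9 lower. The calls of Psmb2 (without native array 1 or 4 or isograft array 1, 3 or 5), Psmb7 (without isograft array 2) and Psma3 (without native array 1 or 4 or isograft array 5) were lost on single omissions. Psmc4 lost its call when its probe sets were averaged (-0.22). In isografts of day 25 the ATPase Psmc5 alone was called, lower by 0.72 (limma adjusted p = 0.0458), where 17.3% of all genes were called (9.89% higher, 7.36% lower). This call was lost without native array 1, 3 or 4 or isograft array 1, 2 or 5.

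In allografts of day 14, Psma5 and Psma3 were higher and 4 members were lower, where 48.0% of all genes were called (21.5% higher, 26.5% lower). The lower members were the base scaffold Psmd1 (-0.59), the ATPase Psmc4 (-0.51), and the lid subunits Psmd12 (-0.48) and Psmd6 (-0.45). Their number fell to 0 without allograft array 4, to 1 without native array 1 or 3 or allograft array 5, and to 2 without native array 2. Median centring gave 3 higher and 0 lower, and reference gene centring 1 higher and 9 lower. In allografts of day 25, Psma5 was higher and Psmc4 (-0.54), the lid subunit Psmd3 (-0.53) and Psmc6 (-0.40) were lower, where 38.1% of all genes were called (18.4% higher, 19.7% lower). Lower calls numbered 1 without native array 1 or 3 or allograft array 4, 5 without native array 5 or allograft array 2 and 6 without native array 4, and Psma5 lost its call without allograft array 3 (0.57). Median centring gave 1 higher and 1 lower, and reference gene centring 0 higher and 10 lower. Psmc4 and Psmc6 depended on the probe set: averaged over their probe sets, Psmc4 gave 0.04 at day 14 and Psmc6 0.01 at day 25. On the same average Psmc4 gave -0.01 at day 25 and Psmd6 -0.01 at day 14, neither called. The medians were -0.11 at day 14 and -0.27 at day 25, against -0.10 and -0.06 over all genes. With median centring the members' median at day 14 became 0.02 and that of all genes 0.03.

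**Figure D4:**
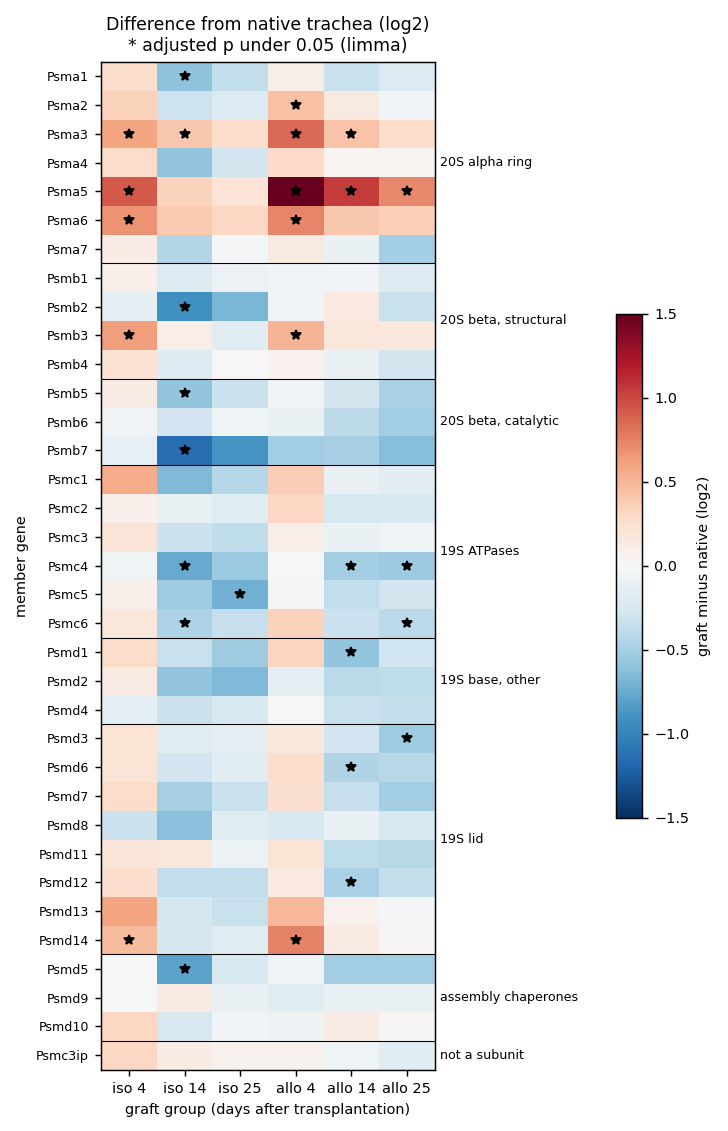
Log2 difference of each graft group from native trachea for the 35 members (rows, by role) in 6 graft groups (columns; iso, isograft; allo, allograft; numbers are days), from limma. Stars mark an adjusted p under 0.05. Psma5 is the darkest row (1.50 in allografts of day 4), and the isograft day 14 column holds the most stars, 1 red and 7 blue.

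Grafts of day 14 were also compared with grafts of day 4 of the same kind, a comparison added after the group values had been seen. In isografts, 14 of 35 members were lower and none higher, where 24.0% of all genes were called (11.4% higher, 12.6% lower). Of the members, 34 had a difference below 0, and the median was -0.58, against 0.01 over all genes. The arrays of both days did not overlap for 5 members, each of them lower at day 14, against 9.26% of all genes. In allografts, 8 members were lower and none higher, where 8.93% of all genes were called (3.66% higher, 5.27% lower). There 29 members were below 0, the median was -0.34 against -0.04 over all genes, and 8 members were lower with no overlap of arrays, against 5.63% of all genes. Centring on reference genes moved the median of all genes in isografts to 0.30 and that of the members to -0.29, and left 3 members called in isografts and 1 in allografts. Such centring shifts all genes of a comparison alike, so it leaves the distance between the members' median and that of all genes as it was.

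The members that were lower came from all parts of the complex except the structural beta subunits and the base subunits without ATPase activity in isografts, and in allografts from the lid, the base and the alpha ring. In isografts they were 4 of 7 alpha subunits (Psma1, Psma2, Psma4, Psma7), 2 of 3 catalytic subunits (Psmb5, Psmb7), 3 of 6 ATPases (Psmc1, Psmc4, Psmc6), 3 of 8 lid subunits (Psmd6, Psmd12, Psmd14) and 2 of 3 chaperones (Psmd5, Psmd10). In allografts they were 4 of 8 lid subunits (Psmd6, Psmd11, Psmd12, Psmd14), 2 of 6 ATPases (Psmc2, Psmc6), 1 of 7 alpha subunits (Psma3) and 1 of 3 other base subunits (Psmd1). No catalytic subunit was called in allografts. Called in both were 4 genes, Psmc6, Psmd6, Psmd12 and Psmd14. These calls are for the probe set that represents each gene. Of the 13 members with several tested probe sets, 6 had probe sets with unlike calls in isografts and 4 in allografts. The test of the difference between allografts and isografts in the change from day 4 to day 14 called 0 of 35 members. It left 4 at an unadjusted p under 0.05, with 7.63% of all genes called. For the change from day 14 to day 25 it also called 0, with 1 at an unadjusted p under 0.05 and 1.24% of all genes called.

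The ATPase Psmc1 had the largest difference in isografts. It read 8.34, 7.67, 6.71, 7.62 and 7.65 at day 4 and 6.52, 6.01, 6.22, 6.93 and 6.26 at day 14. Array 3 of day 4 lay within the range of day 14. The difference was -1.21 (SE 0.31, 2.31-fold lower, limma adjusted p = 0.00534). In allografts Psmc1 differed by -0.47 and was not called.

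Psmd14 was separated in both kinds of graft. In isografts of day 14 it read 8.57, 8.60, 8.39, 8.43 and 8.33, below every day 4 value given above, and the difference was -0.73 (SE 0.16, limma adjusted p = 0.00103). In allografts of day 14 it read 8.69, 8.84, 8.95, 8.99 and 8.79, again below every day 4 value, and fell by 0.62 (adjusted p = 0.0107). Psma1, an alpha subunit, read 9.79, 10.06, 9.46, 9.39 and 9.96 in isografts of day 4 and 9.06, 8.47, 8.80, 8.77 and 9.22 at day 14, without overlap (-0.87, limma adjusted p = 0.0025). Both genes have 1 tested probe set.

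The base scaffold Psmd1 had the largest difference in allografts. It read 9.64, 8.71, 8.65, 9.34 and 9.45 at day 4 and 8.65, 8.69, 8.05, 7.93 and 7.88 at day 14. Arrays 1 and 2 of day 14 came up to the lowest of day 4. The difference was -0.92 (SE 0.24, limma adjusted p = 0.0153). The lid subunit Psmd6 ran from 9.79 to 10.15 at day 4 and from 8.91 to 9.50 at day 14, a difference of -0.72 (limma adjusted p = 0.00824). Psmc6 was lower in both kinds of graft (-0.63 and -0.67) on the probe set that represents it, but in isografts its 2 other probe sets gave -0.08 and -0.12 and were not called. In allografts its call was lost when the 3 probe sets were averaged (-0.42).

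The number of isograft calls depended on single arrays. Without array 1 of the day 4 isografts, the array with the highest member mean, 9 members were called lower in place of 14. Without array 4 of the day 14 isografts 20 were. Each of these arrays had the highest skin marker level of its group (8.83 and 8.455), and the part of this in the counts was not tested. In allografts the count of 8 became 3 without day 14 array 5, 4 without day 4 array 4 or 5, and 5 without day 4 array 3 or day 14 array 1, 2 or 4. The call of Psmd1 was lost without day 4 array 1 or day 14 array 5, that of Psmd12 without day 4 array 4 or 5 or day 14 array 4 or 5, and that of Psmb7 in isografts without day 4 array 1 or day 14 array 2 or 4. Proliferation markers fell over the same interval, from a mean of 7.80 to 5.19 in isografts and from 7.76 to 6.83 in allografts, and their part in the member values was not tested. Between day 14 and day 25 no member was called in isografts (1 at an unadjusted p under 0.05, with 0 of 8313 genes called) or in allografts (0 at an unadjusted p under 0.05, with 3.49% of genes called).

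Several members were measured by more than 1 probe set, and these often differed. The 31 tested probe sets of 13 member genes were read side by side. In allografts of day 4 against native, the probe sets of 7 of the 13 genes lay more than 0.5 apart, and 6 genes had 1 probe set called and another not. The ATPase Psmc4 gave 0.95 and -0.01, and the lid subunit Psmd6 0.98 and 0.27. These counts include Psmb1, whose second probe set read 5 or more in only 6 of 35 arrays and averaged 3.27 in native trachea, near background, so its difference is not given. Psma6 gave 0.73 on the probe set that represents it and 0.24 and 0.20 on its others, and Psmb3 gave 0.51 and -0.18. Both probe sets of Psma5 were called higher (1.50 and 0.87). Between allografts and isografts of day 14 the spread was smaller, with a median of 0.18 and 1 gene, Psmd11, more than 0.5 apart.

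**Figure D5:**
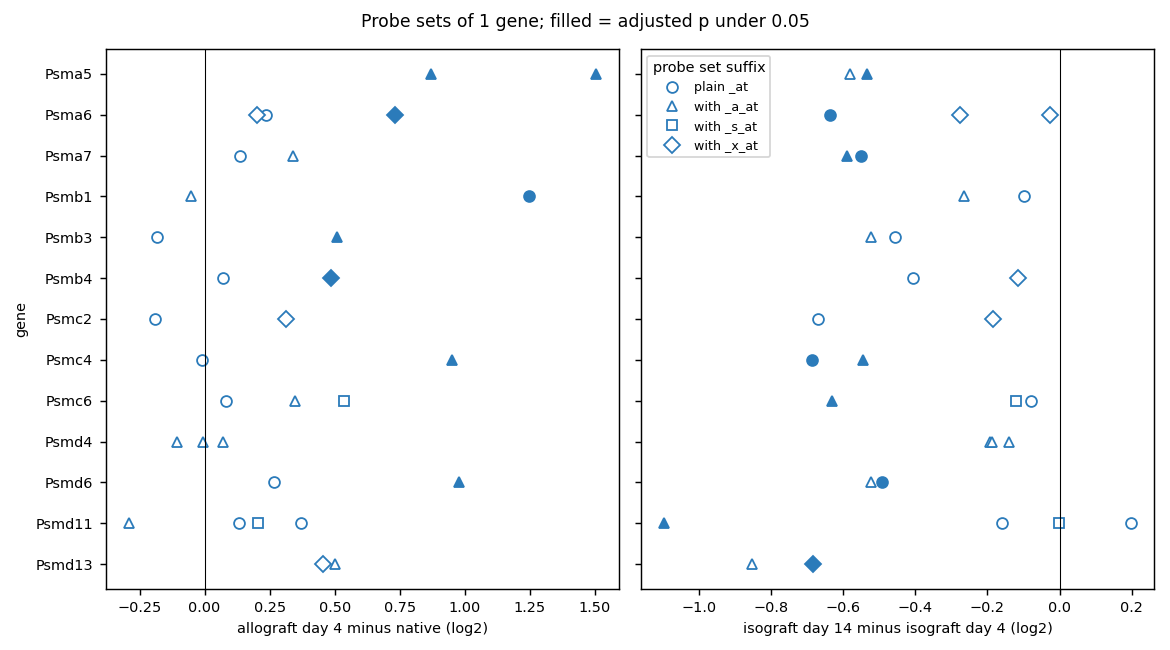
Log2 difference of each tested probe set of the 13 member genes with several, in allografts of day 4 minus native (left) and isografts of day 14 minus day 4 (right). Symbols give the suffix of the probe set name, where _a marks transcripts of 1 gene, _s several transcripts and _x probes that may bind other sequences. Filled symbols have a limma adjusted p under 0.05. The 2 probe sets of Psma5 are both filled on the left, while those of Psmc4 lie at 0.95 and -0.01. The open circle of Psmb1 on the right and its filled circle on the left are a probe set near background.

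Across the 35 arrays the probe sets of 1 gene did not always follow each other. The correlation was 0.86 for the 2 probe sets of Psma7 and 0.76 for those of Psma5, but -0.04 for Psmc4 and 0.08 for Psmc2. For the 4 probe sets of Psmd11 it ran from -0.05 to 0.65. These correlations share the arrays and their group differences and are given as a description.

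Most members varied together. Over the 35 arrays the median correlation between pairs of the 34 subunits and chaperones was 0.42, against 0.01 for pairs of all 8313 genes. With group means removed it was 0.28, against 0.02, so arrays of 1 group that were high in a given subunit tended to be high in others. The ATPase Psmc4 (0.36), the lid subunits Psmd12 (0.35) and Psmd13 (0.39) had the highest mean correlations with the other members on this scale. Psma6 (-0.20), Psma5 (-0.18), Psmd11 (-0.12), Psma3 (-0.11) and Psmc2 (-0.05) were below 0, and the other 29 were between 0.19 and 0.39. All 5 were read on probe sets with the suffix _a, _s or _x, as were 9 of the 29 others, for example Psmd12. The pairs share arrays, scaling and tissue makeup, so these values are a description. The 8313 genes were also not matched to the members for level. All 34 subunits and chaperones read at least 5 in every array, while the filter asked for this in only 5 arrays.

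Genes that assemble the proteasome, feed it or control its genes were compared between allografts and isografts as well, where 21.3% of all genes were called at day 14 and 17.2% at day 25. At day 14, 0 of 4 core assembly factors (3 at an unadjusted p under 0.05, median 0.26), 1 of 9 other activators and partners (Sem1, a small lid subunit, higher by 0.44), 1 of 8 delivery factors (Rad23b, which carries ubiquitinated proteins to the proteasome, higher by 0.64, limma adjusted p = 0.00202) and 1 of 7 genes of the Nrf1 and Nrf2 group were called. The last was Nfe2l2, which encodes Nrf2, lower by 0.54 (9.45 against 9.99, limma adjusted p = 0.0397). At an unadjusted p under 0.05 there were 3 partners, 1 delivery factor and 2 genes of the Nrf1 and Nrf2 group. At day 25, 2 of the 7 genes of that group were called lower, while limma called 0 of the core assembly factors, 0 of the partners and 0 of the delivery factors (1, 0 and 1 at an unadjusted p under 0.05). Nfe2l2 was lower by 0.57 (adjusted p = 0.0328), and Maff, a small partner of both factors, by 1.26 (adjusted p = 0.0417), with Maff at 3.69 and 4.95, near background. The calls of Sem1, Nfe2l2 and Maff were each lost in 9 to 11 of the settings and omissions tried.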

How the data were processed

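RNA from 35 mouse tracheal samples was extracted with TRIzol, purified on RNeasy columns and turned into biotinylated cRNA, per the labels' protocols. The deposited values are log2 intensities that the authors made with GCRMA 1.1.3, per the submitters' processing notes. GCRMA models and removes background, normalizes, and combines the probes of each probe set, so values near background depend on its model. They were used as deposited. Of 22690 probe sets, 64 controls were left out, and 13678 passed the filter (log2 of at least 5 in at least 5 arrays). A model with 1 mean per group was fitted across the 35 arrays (limma 3.58.1, R 4.3.3), after a test on simulated data, and p-values were adjusted by Benjamini-Hochberg over these 13678 probe sets within each comparison, with a threshold of 0.05. Where a gene had several probe sets, the one with the highest overall mean stood for it, and all-gene shares and medians are over 8313 such genes. Groups came from the array titles. With 5 arrays per group, their number limits the precision. Named were the catalytic subunits and the called genes with the largest differences in each direction, and other names were chosen after their values were seen. The members and lists were chosen with earlier results of these data known. Promoters were searched in Python 3.11.15. The alternatives tried were other filters, scalings, probe set rules, array weights, a moderated trend, a replicate block, a stricter threshold, arrays of the compared groups alone, and omission of arrays.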

Additional observations from a re-analysis of the deposited data

Results flagged for a closer look

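An array far from the other 4 was searched for in 49 sets of 5 arrays (7 groups, for 6 genes and the member mean). It was found in 5 sets, where chance gives about 1 in 20 of independent sets. These sets are not independent, since they share arrays and the member mean includes the 6 genes. In isografts of day 4 the far array was array 1 in each case. It read 7.91 for Psmb2 (others 6.49 to 6.69), 10.22 for Psmb5 (others 9.63 to 9.77), 10.78 for Psmb7 (others 9.60 to 9.92) and 9.28 for the mean over the members (others 8.73 to 8.86). Psmb6 read 9.55 in array 3 of the day 14 allografts, against 8.58 to 8.78 in the others.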

How the results depend on the processing

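No alternative changed the count of members called between allografts and isografts at day 4 (0). Counts that moved by over 1.5 times, as higher or lower calls, were these. With no filter, isograft day 14 against native had 2 higher, isograft day 25 0 lower and allograft day 25 2 higher, and with a filter at log2 7 isograft day 25 had 2 lower. With array weights, allografts against isografts had 5 higher at day 14 and 2 lower at day 25. Against native, isografts had 12 lower at day 14, and 1 higher and 6 lower at day 25, and allografts had 9 lower at day 14, and 2 higher and 8 lower at day 25. The change of the difference from day 4 to 14 had 1 higher, and isografts of day 14 against day 4 had 22 lower. With quantile normalization repeated, allografts against isografts at day 14 had 1 higher, isografts against native 8 higher at day 4, and 2 higher and 3 lower at day 14, allografts of day 14 0 lower, the change of the difference 1 higher and allografts of day 14 against day 4 5 lower. Median centring gave 1, 9, 2, 3, 0, 1 and 5 for the same counts, and 1 lower in allografts of day 25. Centring on reference genes gave 1 higher in allografts against isografts at day 14. Against native it gave 0 higher and 1 lower in isografts of day 4, 0 higher at day 14 and 3 lower at day 25, and in allografts 3 higher and 2 lower at day 4, 1 higher and 9 lower at day 14, and 0 higher and 10 lower at day 25. It gave 3 lower in isografts and 1 lower in allografts of day 14 against day 4. It moved the median of all genes by over 0.1 in 7 comparisons, at most 0.29, median centring in 4 (at most 0.17) and repeated quantile normalization in 1 (0.12). Arrays were not taken as paired by replicate number. Of 105 pairs with the same number, 40 had a correlation of deviations from group means over 0.1, with a median of 0.04. Between isografts and allografts of day 4 this correlation was over 0.1 for 4 of 5 numbers (0.05 to 0.47). Pairs with unlike numbers were not set beside these, so the values cannot decide whether arrays were paired. With the replicate block, allografts against isografts at day 14 had 4 higher, isografts of day 25 2 lower against native and the change of the difference 1 higher, and no other count moved by as much. With the compared arrays alone, isografts of day 14 had 0 higher, allografts of day 14 1 higher and 2 lower, and allografts of day 14 against day 4 5 lower. At an adjusted p under 0.01 there were 0 higher and 0 lower in allografts against isografts at day 14, 3 higher in isografts of day 4, 0 higher and 2 lower at day 14, 0 lower at day 25, 0 lower in allografts of day 14, 0 higher and 0 lower at day 25, and 8 and 2 lower at day 14 against day 4. With the mean of probe sets, allografts against isografts had 0 lower at day 14, isografts 8 higher at day 4, 2 higher at day 14 and 2 lower at day 25. Without native array 5 and isograft day 25 array 5, isografts had 2 higher at day 14, and 2 higher and 2 lower at day 25, and allografts 2 higher and 7 lower at day 25. Other probe sets before those with _s or _x, chosen after seeing the data, gave 0 lower in allografts against isografts at day 14. The cause of these changes was not tested.

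Leaving out 1 array at a time gave 0 to 4 higher and 0 to 1 lower in allografts against isografts at day 14. Against native it gave 4 to 6 higher in isografts of day 4, 0 to 1 higher and 3 to 12 lower at day 14, and 0 to 1 higher and 0 to 2 lower at day 25. In allografts it gave 4 to 6 higher at day 4, 2 to 3 higher and 0 to 5 lower at day 14, and 0 to 2 higher and 1 to 6 lower at day 25. It gave 0 to 1 higher for the change of the difference, 9 to 20 lower in isografts and 3 to 8 lower in allografts of day 14 against day 4. Psmb8 relative to Psmb5 at day 4 ran from 0.88 to 1.20, and Psmb10 relative to Psmb7 at day 14 from 0.68 to 1.30. Of 1196 values of named genes under the alternatives, 1010 kept direction and side of the threshold, 178 lost their call and 8 changed sign. These were Psmc4 in allografts of day 14 (0.0354) and Psmc6 in those of day 25 (0.0083) with the mean of probe sets, Psmb5 in allografts against isografts at day 25 (0.035 with array weights, 0.0167 without isograft day 25 array 5 and native array 5, and -0.25 to 0.0167 on single omissions), and on single omissions Psmb6 at day 4 (-0.21 to 0.0713) and day 14 (-0.27 to 0.0779).

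The small number of arrays, the probe set chosen for a gene and the scale limit these values. Values of about 2 to 4 lie near background, and 34 of the 35 members read above the filter in every array.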
